A study of Homo sapiens with 8 samples.

Results

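This section describes the 6 human genes for 14-3-3 proteins named YWHAB, YWHAE, YWHAG, YWHAH, YWHAQ and YWHAZ, taken by gene symbol from 59414 genes in the deposited count table. The family was chosen by symbol with the measured values already in view, both editing scores in all 4 groups and the abundance in the sort and after knockdown, so all values of the 6 genes are given as a description. Counts of genes past the threshold are set beside the share of all genes that passed it, and nothing is read from them. All 6 genes were listed in the count table and in all 4 editing tables. SFN, which encodes the remaining 14-3-3 protein of the human genome, stayed outside: its counts were 2 and 6 in sorted P-bodies, against 13 and 8 in cytosol.

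The libraries came from HEK293T cells, a human embryonic kidney line, in an experiment labelled PB-TRIBE-STAMP. TRIBE and STAMP are methods in which an adenosine deaminase (A-to-I) or a cytidine deaminase (C-to-U) leaves base changes on nearby RNA; the sources used here give neither the fused protein nor whether the cells were 1 clone. There were 2 libraries each of sorted P-bodies, of cytosol, of cells given an siRNA against EDC4 (siEDC4) and of cells given the siRNA named siNC, against which siEDC4 was set. The labels give total RNA for sorted P-bodies, cytoplasmic RNA for cytosol and polyA RNA for siEDC4 and siNC. Library input was 50 ng, 100 ng and 500 ng for sorted P-bodies, cytosol and the siRNA cells. Fraction, RNA type and input therefore cannot be told apart in the sort. A lower value means a smaller share of a library, and less RNA per P-body and fewer P-bodies holding it cannot be told apart either.

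The count table held 21186963 to 23716926 counts per library of the sort. The editing tables held 12048147 to 15947999 reads per library of the sort and 5697417 to 6294767 reads per library of the siRNA cells. All 6 genes listed as HEK293T markers (PAX2, LHX1, NEFM, LIN28B, CDH2 and VIM) exceeded 1 TPM (a level per length, scaled to the same total in each library) in every library of the sort. The blood marker CD3E and the epithelial markers KRT7 and KRT19 were at 0 counts throughout.

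14-3-3 proteins are small acidic proteins that pair with each other and bind target proteins at phosphorylated serines and threonines. By binding they hold kinases, phosphatases and transcription regulators in a given state or compartment. P-bodies are cytoplasmic granules of RNA and protein that hold translationally repressed mRNAs and decay factors, and EDC4 is a scaffold of the decapping machinery found in them.

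All genes of the family lie on different chromosomes (coordinates in hg38 as in the deposited counts). YWHAB (beta) is at chr20:44885702-44908532 on the plus strand and YWHAE (epsilon) at chr17:1344275-1400222 on the minus strand. YWHAG (gamma) is at chr7:76326799-76358991 on the minus strand and YWHAH (eta) at chr22:31944522-31957603 on the plus strand. YWHAQ (theta) is at chr2:9583967-9630997 on the minus strand.

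The coding sequences are alike between genes, which bears on whether reads and edits can be told apart. A stretch of 90 coding bases is shown for that reason, chosen after the data were seen and taken from the GENCODE v29 transcripts of hg38. Capitals mark the 39 positions at which the base differs among the 6 genes; the other 51 positions are the same in all. The YWHAZ sequence entered this count but is not shown, so some capitals are alike in the 5 lines. Of the 30 codons, 28 encode the same amino acid in all 6 genes. It lies in exon 5 of YWHAE (chr17:1354233-1354322, minus strand), in exon 2 of YWHAG (chr7:76329622-76329711, minus strand) and in exon 2 of YWHAH (chr22:31956661-31956750, plus strand). It is split by an intron in YWHAB (exons 6 and 7, chr20:44906013-44906387, plus strand) and in YWHAQ (exons 4 and 5, chr2:9585340-9587497, minus strand).
YWHAB: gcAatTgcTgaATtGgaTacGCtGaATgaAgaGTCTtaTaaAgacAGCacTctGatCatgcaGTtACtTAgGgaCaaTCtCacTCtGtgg
YWHAE: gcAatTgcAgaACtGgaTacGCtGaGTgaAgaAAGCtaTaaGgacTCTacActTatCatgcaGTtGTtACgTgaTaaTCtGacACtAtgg
YWHAG: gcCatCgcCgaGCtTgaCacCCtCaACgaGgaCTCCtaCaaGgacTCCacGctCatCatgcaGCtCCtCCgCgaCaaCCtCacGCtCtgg
YWHAH: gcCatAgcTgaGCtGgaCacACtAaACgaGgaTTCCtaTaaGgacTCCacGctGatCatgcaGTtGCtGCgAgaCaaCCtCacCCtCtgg
YWHAQ: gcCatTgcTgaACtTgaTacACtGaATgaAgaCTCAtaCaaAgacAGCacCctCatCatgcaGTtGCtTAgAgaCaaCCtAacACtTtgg
Within this stretch, YWHAG and YWHAH differed at 13 bases and YWHAE and YWHAG at 28. Over the whole coding sequence, base identity between pairs of the 6 genes ran from 62.4% to 78.9%.

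No run of 50 bases was shared between the transcripts of the 6 genes. Runs of 50 bases shared with transcripts of other genes made up 0% of the YWHAB and YWHAG transcripts, 2.12% of YWHAQ, 3.21% of YWHAH and 5.55% of YWHAE. For YWHAZ, which is at chr8:100916523-100953388 on the minus strand, the share was 11.2% of the transcript and 75.8% of its coding sequence, so its reads are the least certain of the 6. The 24 rows of the count table named as pseudogenes of the family held between 0% and 1.16% of the reads of their parent gene. The sources used here do not say how reads with several matches were treated.

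The 6 transcripts had coding sequences of 735 to 765 bases, against a median of 1455 bases over 13351 genes. Their 3′ untranslated regions differed more in length, from 811 bases in YWHAH to 4168 bases in YWHAZ.

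Of the 6 mRNAs, those of YWHAE, YWHAQ and YWHAB had the lowest abundance in sorted P-bodies relative to cytosol. YWHAE had 422 and 382 CPM (counts scaled to a common library size, after TMM scaling) in sorted P-bodies, against 1048 and 1100 CPM in cytosol. YWHAQ had 159 and 146 CPM in sorted P-bodies, against 318 and 355 CPM in cytosol. YWHAB had 127 and 130 CPM in sorted P-bodies, against 255 and 274 CPM in cytosol. The libraries of the fractions did not overlap for any of these 3 genes.

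YWHAH and YWHAZ differed less between fractions, and YWHAG least. YWHAH had 69.0 and 60.9 CPM in sorted P-bodies, against 91.8 and 98.3 CPM in cytosol. YWHAZ had 313 and 324 CPM in sorted P-bodies, against 386 and 413 CPM in cytosol. YWHAG had 181 and 183 CPM in sorted P-bodies, against 190 and 193 CPM in cytosol. The fractions did not overlap here either, but for YWHAG the distance was small. The share of all genes whose fractions do not overlap was not calculated. In the fit below, 57.8% of all genes passed the threshold in either direction.

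**Figure D1:**
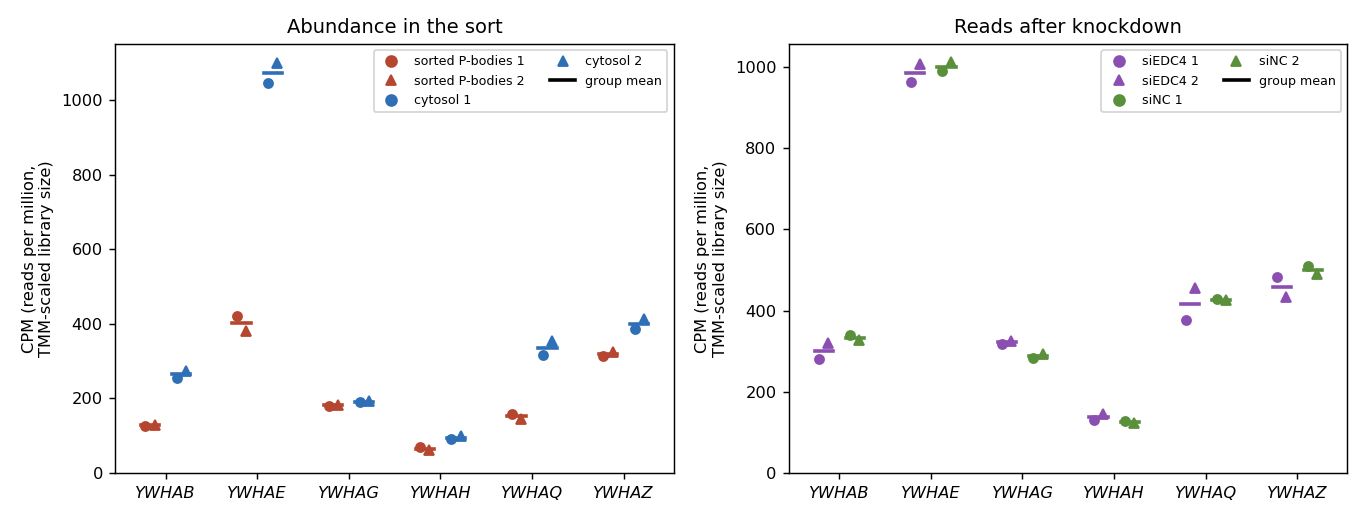
Abundance of the 6 mRNAs (vertical axis, CPM) by gene, in sorted P-bodies and cytosol (left panel) and in siEDC4 and siNC cells (right panel, reads of the A-to-I editing table); circles and triangles are libraries 1 and 2, and bars are group means. YWHAE averages 402 CPM in sorted P-bodies, against 1074 CPM in cytosol, and YWHAG averages 182 CPM in sorted P-bodies, against 191 CPM in cytosol.

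In edgeR's quasi-likelihood fit over 18745 genes, the log2 fold change (sorted P-bodies over cytosol) was −1.42 ± 0.12 (SE, n = 2 libraries each) for YWHAE, −1.14 ± 0.12 for YWHAQ and −1.04 ± 0.11 for YWHAB. It was −0.55 ± 0.11 for YWHAH, −0.33 ± 0.11 for YWHAZ and −0.07 ± 0.10 for YWHAG. At a Benjamini-Hochberg adjusted p under 0.05, 5 of 6 genes were lower, all but YWHAG, and 0 were higher; of all genes tested, 29% were lower and 28.8% higher (57.8% in either direction). The median of the 6 log2 fold changes was −0.80, against −0.03 over all genes tested. The replicate number, which the labels also give as a batch, was added as a block in a second fit, and there the YWHAZ value was −0.33 with an edgeR adjusted p of 0.0527, so that call is lost. The YWHAZ call was also lost with DESeq2 (adjusted p = 0.0587), without cytosol 1 (edgeR adjusted p = 0.179) and without cytosol 2 (0.355). With library size as the only scaling, which moves the median of all genes to −0.23, YWHAG was called lower at −0.28 (edgeR adjusted p = 0.0398), and with the trend with gene length removed its sign turned to 0.05. Within batches, the 12 log2 ratios of the 6 genes ran from −1.53 to −0.07.

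Per deposited gene length, the 6 mRNAs kept the same order in both fractions. YWHAE was highest in both, at 450 ± 18.9 TPM in sorted P-bodies and 928 ± 13.8 TPM in cytosol (SD, n = 2 each), and YWHAQ came next at 233 ± 7.15 TPM in sorted P-bodies and 397 ± 23.7 TPM in cytosol. YWHAG stood at 203 ± 7.60 TPM in sorted P-bodies and 165 ± 1.45 TPM in cytosol, and YWHAZ at 154 ± 8.14 TPM in sorted P-bodies and 149 ± 4.45 TPM in cytosol. YWHAH stood at 112 ± 6.51 TPM in sorted P-bodies and 127 ± 3.73 TPM in cytosol, and YWHAB was lowest at 67.1 ± 2.98 TPM in sorted P-bodies and 107 ± 3.51 TPM in cytosol. YWHAG and YWHAZ came next in both fractions, followed by YWHAH, and neighbours in this order differed by more than the sum of their SDs. TPM is scaled within each library without TMM, and the means of YWHAG and YWHAZ were higher in sorted P-bodies by TPM but lower by CPM. The deposited gene lengths differ unevenly from those of the transcripts used above. They were 7907 bases for YWHAB (transcript 3109), 8557 for YWHAZ (transcript 5248) and 3705 for YWHAG (transcript 3750). The order of the genes thus depends on the lengths used, and no other lengths were tried.

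YWHAE made up 37.7% and 36.1% of the summed TPM of the 6 genes in sorted P-bodies, against 50.0% and 49.2% in cytosol. YWHAG made up 16.1% and 17.2% of that sum in sorted P-bodies, against 9.01% and 8.59% in cytosol. The share of YWHAB was between 5.29% and 5.73% in all 4 libraries of the sort. All these shares rest on the deposited gene lengths.

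**Figure D2:**
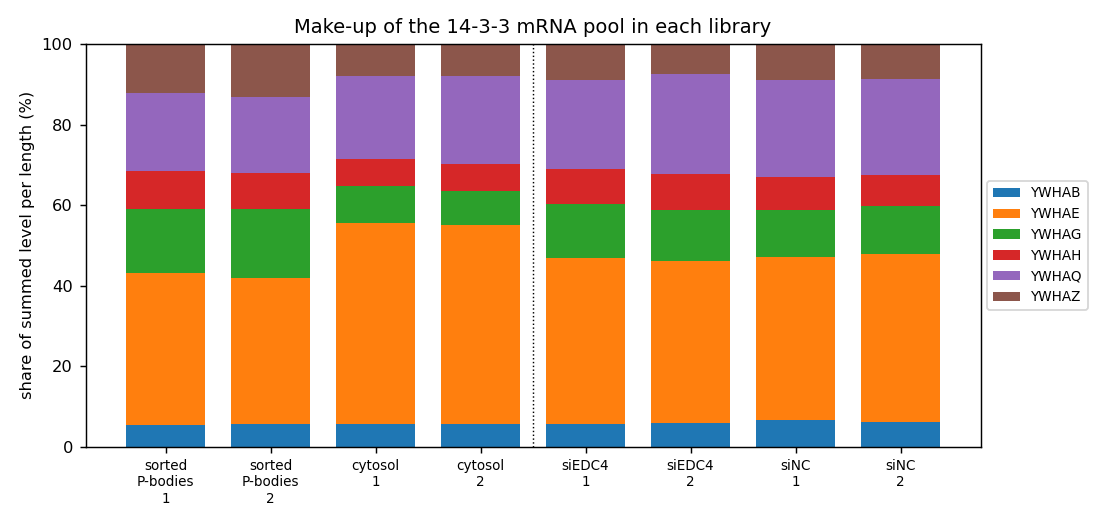
Share of each gene in the summed level per length of the 6 mRNAs (vertical axis, percent), 1 bar per library; the dotted line separates the sort (gene counts) from the siRNA cells (reads of the A-to-I editing table), which were made separately. The YWHAE block is 37.7% and 36.1% tall in sorted P-bodies, against 50.0% and 49.2% in cytosol.

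The A-to-I editing score is the share of a gene's reads in the deposited table that carry an A-to-I edit. It was higher in sorted P-bodies than in cytosol for all 6 mRNAs, in both libraries. In the fit below, 73.5% of all genes tested were higher too. The share of all genes whose fractions do not overlap was not calculated, and nothing is read from the separation. YWHAG scored 12.7% and 12.8% in sorted P-bodies, against 2.64% and 3.28% in cytosol. YWHAZ scored 11.99% and 12.3% in sorted P-bodies, against 2.00% and 2.22% in cytosol. YWHAH scored 9.76% and 14.8% in sorted P-bodies, against 2.64% and 2.88% in cytosol, with the widest spread among sorted libraries of the 6. These 3 mRNAs had the highest group means of the 6 in each fraction.

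YWHAB and YWHAQ formed a middle pair. YWHAB scored 5.51% and 6.997% in sorted P-bodies, against 0.925% and 0.940% in cytosol. YWHAQ scored 6.11% and 6.25% in sorted P-bodies, against 1.16% and 1.196% in cytosol. YWHAE had the lowest scores in both fractions. It scored 3.20% (173 of 5409 reads) and 3.79% (152 of 4008 reads) in sorted P-bodies, against 0.0615% (8 of 13014 reads) and 0.0752% (10 of 13298 reads) in cytosol. The exact 95% binomial intervals for YWHAE were 2.75% to 3.70% and 3.22% to 4.43% in sorted P-bodies, against 0.0265% to 0.121% and 0.0361% to 0.138% in cytosol; they cover counting error only.

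Among all genes listed, the YWHAE score was above 24.02% and 29.2% of genes in the sorted P-body libraries, against 7.73% and 7.503% of genes in the cytosol libraries. The median score of all genes was 6.82% and 6.97% in sorted P-bodies, against 2.74% and 2.63% in cytosol. YWHAG was above 82.6% and 81.2% of genes in sorted P-bodies, against 48.5% and 61.2% of genes in cytosol.

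The edgeR fit of edited and unedited reads over 11303 genes gave a log2 odds ratio (sorted P-bodies over cytosol) of 5.69 ± 0.23 (SE) for YWHAE. The others lay close together, at 2.81 ± 0.20 for YWHAB, 2.68 ± 0.13 for YWHAZ, 2.46 ± 0.17 for YWHAQ, 2.26 ± 0.15 for YWHAG and 2.26 ± 0.24 for YWHAH. All 6 genes passed the threshold as higher, as did 73.5% of all genes tested; 1.08% were lower and 74.6% passed in either direction. The median of the 6 was 2.57, against 1.46 over all genes tested. With each library centred on its median score, the 6 values ran from 0.83 for YWHAH and YWHAG to 4.28 for YWHAE, and all 6 still passed. The share of edited reads of YWHAE, summed over libraries, was 50.4 times as high in sorted P-bodies as in cytosol (exact 95% interval 31.4 to 86.2). This interval covers counting error only. Over all genes, A-to-I edited reads differed between libraries of a group beyond sampling noise. The chi-square per degree of freedom was 3.55 in sorted P-bodies and 1.445 in cytosol. It compares counts of edited reads, so it also takes in differences in a gene's total reads and does not measure the spread of the edited share. For all reads of the A-to-I table it was 18.99 in sorted P-bodies and 1.92 in cytosol.

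**Figure D3:**
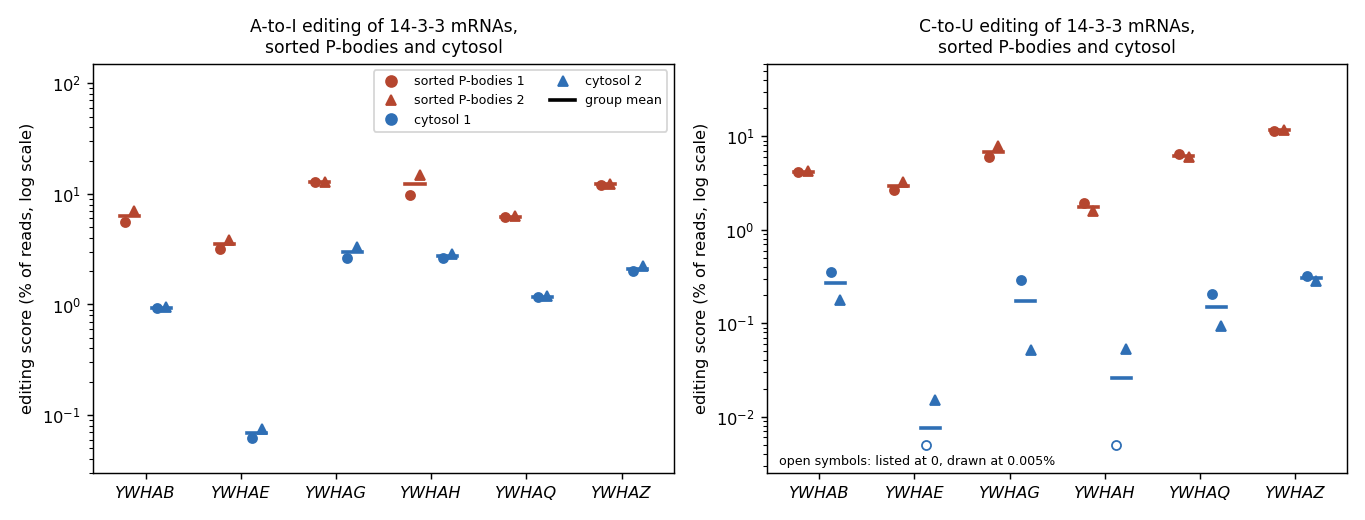
Editing score of the 6 mRNAs (vertical axis, percent of reads, log scale) by gene in sorted P-bodies and cytosol, for A-to-I (left panel) and C-to-U (right panel); circles and triangles are libraries 1 and 2, bars are group means, and open symbols are scores listed at 0. All sorted P-body libraries lie above all cytosol libraries for each gene, and the YWHAE distance is the widest in both panels. Of all genes tested, 73.5% were higher in sorted P-bodies for A-to-I and 68% for C-to-U. The share without overlap was not calculated.

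C-to-U editing, scored in the same way, was also higher in sorted P-bodies for all 6 mRNAs in both libraries. In the fit below, so were 68% of all genes tested. Here too the share of all genes without overlap was not calculated. YWHAZ scored 11.5% and 11.7% in sorted P-bodies, against 0.322% and 0.286% in cytosol. YWHAG scored 5.95% and 7.81% in sorted P-bodies, against 0.292% and 0.0518% in cytosol. YWHAQ scored 6.46% and 6.03% in sorted P-bodies, against 0.207% and 0.0944% in cytosol. YWHAZ stood above the rest in sorted P-bodies for this editor.

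YWHAB scored 4.13% and 4.21% in sorted P-bodies, against 0.357% and 0.176% in cytosol. YWHAE and YWHAH had almost no edited reads in cytosol. YWHAE scored 2.66% (144 of 5404 reads) and 3.25% (130 of 3999 reads) in sorted P-bodies, against 0 of 13015 reads and 2 of 13317 reads (0.0150%) in cytosol. For the 0 of YWHAE, a limit of 3 reads is a share of 0.0231%, and the exact 95% interval reaches 0.0283%. YWHAH scored 1.94% (19 of 979 reads) and 1.58% (11 of 696 reads) in sorted P-bodies, against 0 of 1816 reads and 1 of 1907 reads (0.0524%) in cytosol. For the 0 of YWHAH, a limit of 3 reads is a share of 0.165%, and the exact 95% interval reaches 0.203%. A score listed at 0 can also come from a filter on edited sites, and the sources used here do not say how sites were called. Summed over libraries, the share of edited reads was 384 times as high in sorted P-bodies for YWHAE (exact 95% interval 105 to 3184) and 66.7 times for YWHAH (11.1 to 2720). These intervals too cover counting error only.

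The edgeR log2 odds ratios over 10613 genes were 5.47 ± 0.37 (SE) for YWHAQ, 5.42 ± 0.30 for YWHAZ, 5.40 ± 0.45 for YWHAG and 4.03 ± 0.37 for YWHAB. The fitted values of YWHAE (8.46 ± 0.57) and YWHAH (5.75 ± 0.80) rest on 2 and 1 edited reads in cytosol, as do the summed ratios above, so their size is uncertain. Single cytosol libraries also moved these values by over 1.5 times on the odds scale: without cytosol 1, YWHAG was at 7.05, YWHAQ at 6.11, YWHAE at 7.56 and YWHAH at 4.94. Without cytosol 2, YWHAG was at 4.63, YWHAE at 11.5 and YWHAH at 7.95; all of these still passed. All 6 genes were called higher, as were 68% of all genes tested, with 0.292% lower and 68.3% called in either direction. The median of the 6 was 5.45, against 2.33 over all genes tested. With each library centred on its median score, the 6 values ran from 1.75 for YWHAB to 6.34 for YWHAE, and all 6 still passed.

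In the edgeR fits, YWHAE had the lowest abundance value of the 6 and the highest editing value for both editors. That order depended on the method: with limma on log2 scores plus a pseudocount (0.759% for A-to-I, 0.132% for C-to-U), YWHAE was at 2.36 for A-to-I, against 2.17 for YWHAZ, and at 4.47 for C-to-U, below YWHAZ (4.75), YWHAG (4.64) and YWHAQ (4.52). YWHAB, also among the lowest in abundance ratio, had the lowest C-to-U value of the 6, while YWHAG, at an abundance value near 0, had a log2 odds ratio of 2.26 for A-to-I and 5.40 for C-to-U. Reads of the A-to-I table came to between 48.4% and 81.5% of the gene counts of the 6 genes, so the measures share reads.

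**Figure D4:**
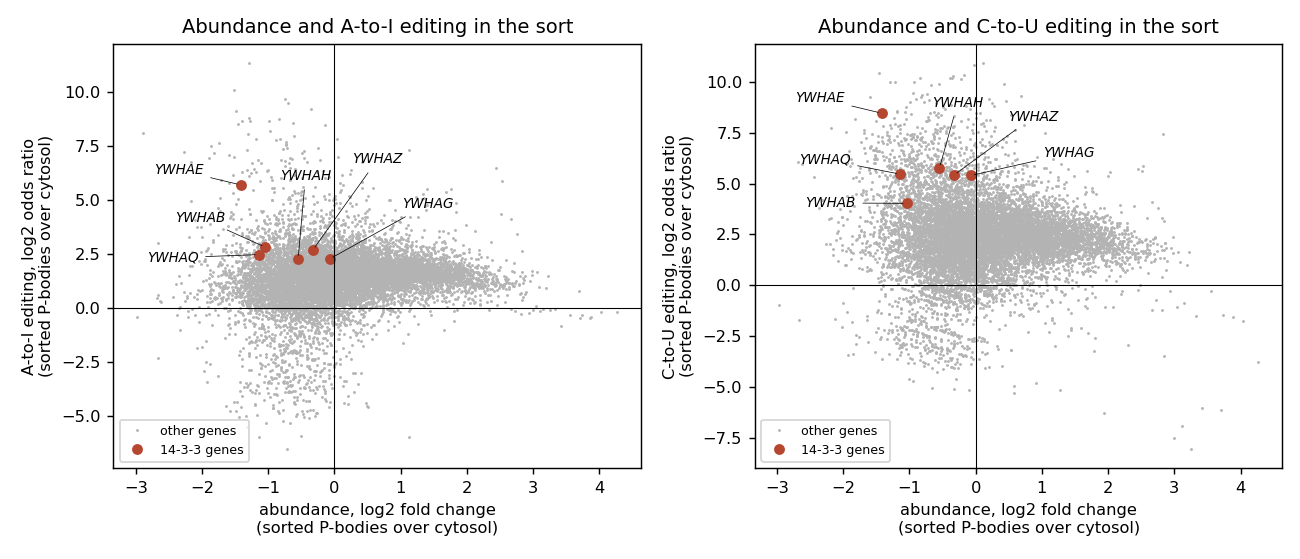
Log2 fold change of abundance (horizontal axis) against log2 odds ratio of A-to-I (left panel) and C-to-U editing (right panel, vertical axes), sorted P-bodies over cytosol, 1 point per gene; large red points are the 6 genes. All 6 lie left of 0 in abundance and above 0 in editing, with YWHAE leftmost and uppermost among them.

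EDC4, the target of the siRNA, had 245 and 186 reads in siEDC4 cells, against 684 and 609 reads in siNC cells, a log2 fold change of −1.56 ± 0.14 (SE; edgeR adjusted p = 2.6e-25). The reads of the siNC libraries differed by no more than sampling noise in the A-to-I table (chi-square per degree of freedom 1.02, p = 0.0619) and barely beyond it in the C-to-U table (p = 0.0483). They were therefore summed and counted as 1 sample, and the spread in these comparisons comes from the siEDC4 libraries alone. Their edited reads did differ beyond sampling noise (chi-square per degree of freedom 1.26 for A-to-I and 1.32 for C-to-U).

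None of the 6 mRNAs passed the threshold for reads after knockdown. YWHAE had 964 and 1008 CPM in siEDC4 cells, against 990 and 1013 CPM in siNC cells. YWHAG had 318 and 325 CPM in siEDC4 cells, against 284 and 294 CPM in siNC cells, without overlap. YWHAB had 280 and 320 CPM in siEDC4 cells, against 341 and 326 CPM in siNC cells, also without overlap. The siEDC4 libraries were the higher ones for YWHAG and the lower ones for YWHAB. YWHAH had 131 and 146 CPM in siEDC4 cells, against 128 and 122 CPM in siNC cells, without overlap. YWHAQ had 378 and 455 CPM in siEDC4 cells, against 428 and 426 CPM in siNC cells. YWHAZ had 484 and 434 CPM in siEDC4 cells, against 511 and 490 CPM in siNC cells, without overlap. The groups of YWHAE and YWHAQ overlapped. Among the others the gaps were as small as 320 against 326 CPM for YWHAB and 131 against 128 CPM for YWHAH. How many of all genes separate in this way was not calculated, so nothing is read from it. The edgeR log2 fold changes of the 6 ran from −0.15 ± 0.11 for YWHAB to 0.16 ± 0.11 for YWHAG, and 0 of 6 passed the threshold, against 0.432% of all genes higher and 0.132% lower (0.564% in either direction).

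A-to-I scores in the siRNA cells were low for all 6 mRNAs. YWHAH scored 1.38% (11 of 797 reads) and 1.205% (10 of 830 reads) in siEDC4 cells, against 0.252% (2 of 795 reads) and 0.284% (2 of 703 reads) in siNC cells. YWHAZ scored 1.53% and 1.74% in siEDC4 cells, against 1.04% and 1.17% in siNC cells. YWHAQ scored 0.914% and 0.925% in siEDC4 cells, against 0.413% and 0.655% in siNC cells. For these 3 mRNAs both siEDC4 libraries lay above both siNC libraries, on few edited reads in the case of YWHAH. The share of all genes that separate in this way was not calculated, and nothing is read from the separation.

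The groups overlapped for the other mRNAs. YWHAG scored 0.671% and 1.14% in siEDC4 cells, against 0.734% and 1.13% in siNC cells. YWHAB scored 0.176% and 0.275% in siEDC4 cells, against 0.330% and 0% in siNC cells. YWHAE had 0 of 5860 and 4 of 5741 reads edited in siEDC4 cells, against 0 of 6166 and 0 of 5814 in siNC cells, and was not tested.

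Log2 odds ratios (siEDC4 over siNC) were 2.23 ± 0.65 (SE) for YWHAH, 0.80 ± 0.39 for YWHAQ, 0.57 ± 0.33 for YWHAZ, 0.37 ± 0.72 for YWHAB and −0.05 ± 0.46 for YWHAG. Of these 5 genes, 0 passed the threshold in edgeR, and so did 0% of 9157 genes tested, 491 of which had an unadjusted p under 0.05; DESeq2 called 1 gene. With all 4 libraries and the replicate block, 25 genes were called higher and 1 lower, and these 5 were not called. The reported fit, with siNC counted as 1 sample, called no gene, so its missing calls do not show that scores were alike. The median of the 5 was 0.57, against 0.31 over all genes tested.

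C-to-U scores in the siRNA cells were above the A-to-I scores in every library for all of the 6 mRNAs but YWHAH. YWHAE scored 2.52% and 2.40% in siEDC4 cells, against 1.85% and 1.74% in siNC cells. YWHAB scored 4.53% and 4.93% in siEDC4 cells, against 4.36% and 3.54% in siNC cells. YWHAH scored 0.872% and 1.92% in siEDC4 cells, against 0.754% and 0.850% in siNC cells. The groups did not overlap for these 3 mRNAs, narrowly so for YWHAB and YWHAH. Here too the share of all genes without overlap was not calculated, and nothing is read from it.

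YWHAQ scored 6.62% and 5.53% in siEDC4 cells, against 5.76% and 4.52% in siNC cells. YWHAZ scored 5.24% and 3.43% in siEDC4 cells, against 5.11% and 4.69% in siNC cells. YWHAG scored 3.57% and 1.67% in siEDC4 cells, against 1.36% and 1.71% in siNC cells. In YWHAG and YWHAZ siEDC4 library 1 stood well above siEDC4 library 2. The edgeR log2 odds ratios ran from −0.20 ± 0.39 for YWHAZ to 0.81 ± 0.60 for YWHAH; 0 of 6 passed the threshold, as did 0% of 9646 genes tested, 377 of which had an unadjusted p under 0.05, and DESeq2 called 0.

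**Figure D5:**
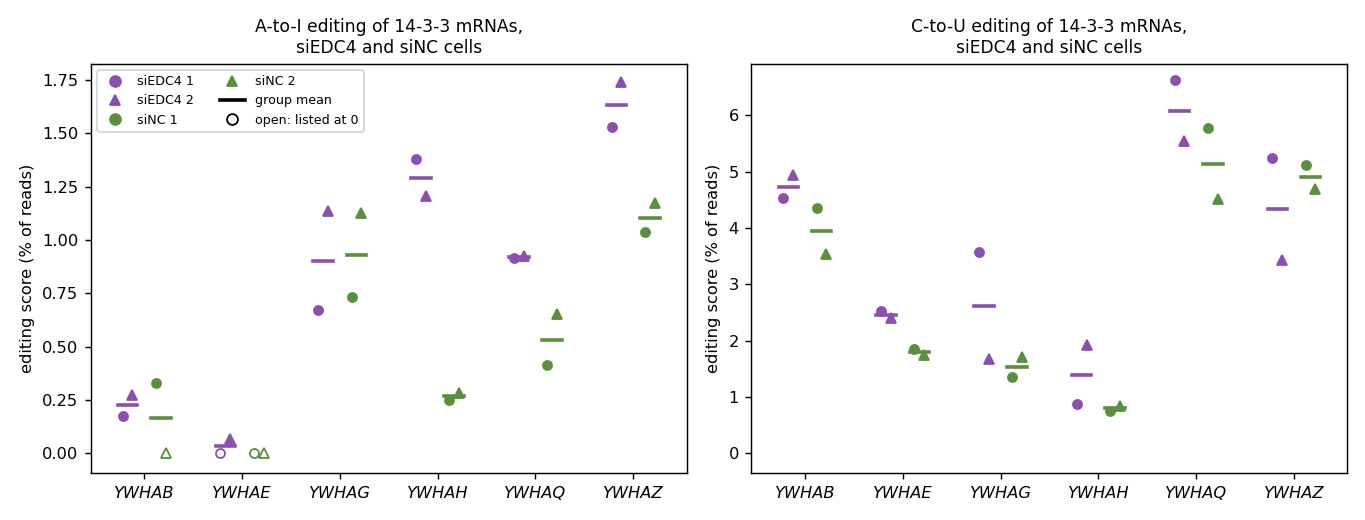
Editing score of the 6 mRNAs (vertical axis, percent of reads) by gene in siEDC4 and siNC cells, for A-to-I (left panel) and C-to-U (right panel, different scale); circles and triangles are libraries 1 and 2, bars are group means, and open symbols are scores listed at 0. YWHAH averages 1.29% in siEDC4 cells and 0.268% in siNC cells for A-to-I; most other pairs overlap or lie close.

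The editors placed the siNC cells differently against the fractions, as a description across tables made separately and with different RNA types. For A-to-I, both siNC libraries scored below every library of the sort in 6 of 6 mRNAs, as in 68.9% of 10578 genes. For C-to-U, both siNC libraries scored above both cytosol libraries in 6 of 6 mRNAs, as in 63.1% of 10654 genes. They also scored below both sorted P-body libraries in 5 of 6, all but YWHAB, as in 28.5% of genes.

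The genes outside the family nearest to the median profile of the 6, over 10 values per gene (group means of both scores in all groups and both abundance ratios) among 10340 genes, were HNRNPC at a distance of 0.622, VANGL2 at 0.712, KDELR2 at 0.787 and ELAVL1 at 0.797. YWHAQ lay closest to that profile of the 6 genes at rank 20, and YWHAE farthest at rank 7190. No gene of the family had another of the family as its nearest. Among 10339 other genes, the nearest other 14-3-3 gene ranked between 42 (YWHAQ for YWHAB) and 684 (YWHAH for YWHAG). The rank to expect for a set of this size was not calculated, so neither likeness nor unlikeness is read from these ranks.

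A list of 56 genes whose proteins are known to bind 14-3-3 proteins was examined beside the family. In the sort, 20 of its 56 genes (35.7%) passed the threshold for abundance as higher in sorted P-bodies and 22 (39.3%) as lower, against 28.8% and 29% of all genes tested. BRAF, a kinase of the MAP kinase pathway, had 113 and 149 CPM in sorted P-bodies, against 51.4 and 48.9 CPM in cytosol (log2 1.38 ± 0.14). LRRK2, a large kinase, and IRS2, an insulin receptor substrate, were also higher, at log2 1.84 ± 0.14 and 1.15 ± 0.11.

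AKT1S1, an inhibitory subunit of mTORC1, had 27.3 and 25.7 CPM in sorted P-bodies, against 61.1 and 62.9 CPM in cytosol (log2 −1.23 ± 0.10). CRTC1 and CRTC2, coactivators of CREB, were lower at log2 −1.28 ± 0.12 and −1.15 ± 0.10, and ARAF, a kinase related to BRAF, at −1.03 ± 0.10. EDC3, a decapping factor of P-bodies, had 59.0 and 53.9 CPM in sorted P-bodies, against 58.3 and 57.7 CPM in cytosol, and did not pass (log2 −0.04 ± 0.10).

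In A-to-I editing, 48 of 55 genes of the list tested were higher in sorted P-bodies (87.3%) and 0 lower, against 73.5% higher and 1.08% lower of all genes tested, with a median of 1.45 against 1.46 over all genes. LATS1, a kinase of the Hippo pathway, scored 10.7% and 12.5% in sorted P-bodies, against 3.56% and 2.74% in cytosol. CDC25A, a phosphatase of the cell cycle, scored 9.80% and 11.5% in sorted P-bodies, against 3.62% and 3.72% in cytosol. Both were higher in sorted P-bodies, as was EDC3 (log2 odds ratio 1.34 ± 0.20).

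In C-to-U editing, 44 of 55 were higher (80%) and 0 lower, against 68% higher and 0.292% lower of all genes tested, with a median of 2.23 against 2.33. MDM4, a p53 regulator, scored 5.32% and 4.79% in sorted P-bodies, against 0.130% and 0.287% in cytosol. MDM4 was higher for A-to-I as well (log2 odds ratio 1.91 ± 0.14). YAP1, a Hippo pathway coactivator, scored 14.7% and 17.6% in sorted P-bodies, against 2.92% and 2.81% in cytosol. SOS1, an activator of RAS, ZFP36L2, a protein that binds AU-rich mRNAs, and EDC3 were higher at log2 odds ratios of 2.81 ± 0.29, 2.68 ± 0.29 and 2.46 ± 0.76. After knockdown, 1 of 51 genes of the list (1.96%) was higher in reads and 0 lower, against 0.432% and 0.132% of all genes tested. In editing 0 of 47 passed by either editor, as did 0% of all genes tested.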

How the data were processed

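Per the labels, RNA of 8 HEK293T libraries was extracted with TRIzol. Tools named per the submitters' processing notes are STAR 2.7.9a, featureCounts 2.0.1, cutadapt 1.18 and FastQC 0.11.9, with build hg38, in no stated order or role; the sources used here give no annotation, strand setting or way of calling sites. The authors deposited raw counts per gene for the sort. For each editor and contrast they deposited edited reads, reads (entered as estimated counts, since 3 broken ANK2 lines per table, left out here, are not whole) and an editing score, a fraction given here as a percentage. Samples were grouped by the labels' sample group. edgeR 4.0.16 (R 4.3.3) tested counts after TMM scaling and filterByExpr, and edited against unedited reads with 1 term per library, for genes edited in 2 or more libraries, with Benjamini-Hochberg adjustment over all genes. The SE is the estimate over the square root of F, so it restates the test. DESeq2 1.42.0 and limma 3.58.1 were alternatives. TPM used the deposited lengths. The batch tag equals the replicate number, so the numbers pair samples by label; correlations of deviations from group means ran only from −0.034 to 0.036. Nothing says that replicates were separate cultures, so the spread may be technical.

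Tests were tried on simulated data. The abundance test of the sort recovered nearly all changes. The test of reads after knockdown was not tried on simulated data. The editing tests recovered few or none of the changes at the setting first used. The changes put into those data were then made larger and less variable, in 2 steps, while the tests stayed as they were, until most were recovered; all settings are kept. At the first setting both knockdown editing tests and the C-to-U test of the sort recovered none, and at the second the A-to-I knockdown test still recovered none. A gene not called by them, the knockdown tests above all, is thus no sign that it did not change.

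The genes, lists and markers were chosen with earlier results of these data known. All 6 genes, SFN and EDC4 are named, as are up to 4 genes of the binding partner list with the smallest p in each direction in the sort, and EDC3; 2 results that this rule would name are not reported here. Likeness is the Euclidean distance over values divided by their SD, scores as log2 of percent plus 0.1. Intervals are exact at 95%, and a count of 0 was given a limit of 3 reads.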

Additional observations from a re-analysis of the deposited data

How the results depend on the processing

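Over all alternatives with a test, the count of 14-3-3 genes called in each direction kept within 1.5 times of its reported value in all 6 comparisons, and a reported count of 0 stayed at 0. In the knockdown comparisons all reported counts were 0 and few or no genes were called at all. Agreement there was almost fixed in advance, also for the single knockdown values below. Of 361 alternative values of single genes, 327 had a test: 319 kept sign and side of the threshold, 4 lost the call (all YWHAZ abundance, given above), 1 gained it (YWHAG abundance with library size as the only scaling, −0.28) and 3 changed sign. The other 34, which leave out a siEDC4 library, have no test, and 4 of them changed sign. The abundance value of YWHAG was 0.048 with the trend with gene length removed. Leaving out 1 library each, A-to-I values after knockdown ran from −0.524 (without siNC replicate 2) to 5.15 (without siNC replicate 1, which leaves siNC with 0 edited reads) for YWHAB, and from −0.434 (without siEDC4 replicate 2) to 0.31 (without siEDC4 replicate 1), with 0.288 without siNC replicate 2, for YWHAG; the cause was not tested. With the replicate block, abundance values were −1.04 for YWHAB, −1.42 for YWHAE and −1.14 for YWHAQ. The block changed no call of the 6 genes other than that of YWHAZ. With the block and all 4 libraries, YWHAH was 2.22 for A-to-I after knockdown (edgeR adjusted p = 0.289). Over all genes, the block with 4 libraries called 25 genes higher and 1 lower for A-to-I after knockdown, 3 and 1 for C-to-U, and 303 and 218 for reads, against 0, 0 and 46 higher with 14 lower in the reported fits. DESeq2 called 2 higher and 1 lower for reads. Without siEDC4 replicate 1, reads were 0.016 for YWHAE and 0.099 for YWHAQ, and without siEDC4 replicate 2 the C-to-U value of YWHAZ after knockdown was 0.099. Few edited reads limit the cytosol C-to-U scores of YWHAE and YWHAH and that of YWHAG in cytosol 2 (2 of 3859 reads). The A-to-I scores in the siRNA cells also rest on few edited reads, at most 45 in a library (YWHAZ, siEDC4 library 1).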
